A study of Oryza sativa Japonica Group with 6 samples.

Results

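Of the 37863 genes listed for rice leaf (Oryza sativa, Japonica group), 4 are described here, namely Os10g0150400, Os10g0150600 and Os10g0150700 on chromosome 10 and Os04g0644400 on chromosome 4. The chromosome 10 genes are annotated as DUF1210 family proteins of unknown function, and the chromosome 4 gene as similar to a proline-rich-like protein. They were selected on their measured transcript levels, which are high in these same leaf libraries, with the genotype results known. How high their levels are is therefore a description and was not tested. The genotype p-values given below for these genes do not allow for that choice. The tested line, OsWRKY65-2, is a transgenic line that overexpresses the WRKY transcription factor OsWRKY65, and 3 of its libraries were set against 3 wild type (WT) libraries. All were polyA RNA from leaves of seedlings 14 days after planting, grown on MS medium. The promoter that drives the transgene is not given in the sources used here, and all 3 transgenic libraries carry the name of the same line. Nothing in the labels says that replicates were separate plants or pools, and the p-values given here therefore reflect library-to-library spread that may be technical.

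Proline-rich proteins and their relatives, the extensins, are secreted structural proteins of the plant cell wall. Prolyl 4-hydroxylases convert many of their prolines to hydroxyproline, sugars are attached there, and the proteins can then be cross-linked into the wall by peroxidases, which stiffens it. DUF1210 is a name for a conserved protein domain to which no function has been assigned. On chromosome 10 the annotation lists DUF1210 genes in the same run of identifiers as genes called similar to proline-rich protein.

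Total counts were 20585288 to 28361580 in the OsWRKY65-2 libraries and 22618996 to 29720852 in the WT libraries. OsWRKY65-2 replicate 3 stood apart from every other library. Across tested genes its log2 CPM (counts per 1000000, scaled with TMM factors) correlated with those of the others at r = 0.698 to 0.785, against 0.923 or more for pairs without it (genes are not independent replicates). The gene taken as OsWRKY65 from its older locus name, Os12g0116800, was at 69.5, 42.3 and 1040 CPM in OsWRKY65-2 replicates 1 to 3, and at 4.16, 0 and 0 CPM in WT replicates 1 to 3. Leaf markers were high in all libraries, with Rubisco small subunits and chlorophyll-binding proteins summing to 21330, 23760 and 24150 TPM (transcripts per 1000000, a level per transcript length) in OsWRKY65-2 and 13140 to 19450 TPM in WT. The 3 root-specific genes summed to at most 4.89 TPM in OsWRKY65-2 and at most 6.13 TPM in WT, and were at 0 in OsWRKY65-2 replicate 3 and in WT replicate 2.

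In 5 of the libraries the 4 genes were among the most abundant 487 transcripts by TPM, and in OsWRKY65-2 replicate 3 each had a count of 0. In the WT libraries their mean levels lay between 489 and 733.5 TPM. OsWRKY65-2 replicate 1 held the lowest level of each gene apart from those zeros. None of the 4 genes passed the test between genotypes, with or without OsWRKY65-2 replicate 3.

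Os10g0150400, of older locus name LOC_Os10g05970, was at 265, 486.5 and 0 TPM in OsWRKY65-2 replicates 1 to 3, and at 800.2, 505 and 895 TPM in WT replicates 1 to 3. On this scale every OsWRKY65-2 library lay below every WT library, but replicate 2 of the line was close to WT replicate 2. Means were 250.4 ± 244 TPM in OsWRKY65-2 and 733.5 ± 204 TPM in WT (SD, n = 3 each). In CPM the genotypes overlapped, with 196, 333 and 0 in OsWRKY65-2 against 465, 299 and 600.1 in WT, and OsWRKY65-2 replicate 2 then stood above WT replicate 2. By TPM it ranked 336th and 183rd among all genes in OsWRKY65-2 replicates 1 and 2, and 84th, 165th and 80th in WT. The fitted log2 fold change came to -1.36 ± 1.80 (SE), which did not pass edgeR's quasi-likelihood test (adjusted p = 0.899).

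Os10g0150600 (LOC_Os10g05980) was at 202, 333 and 0 TPM in OsWRKY65-2 and at 524, 311 and 653 TPM in WT. OsWRKY65-2 replicate 2 lay above WT replicate 2, so the genotypes overlapped on the TPM scale as well as in CPM. Its log2 fold change, -1.29 ± 1.76 (SE), had an adjusted p of 0.904 (edgeR).

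Os10g0150700 (LOC_Os10g05990) was at 223, 391 and 0 TPM in OsWRKY65-2 and at 498, 348 and 621 TPM in WT. Here too OsWRKY65-2 replicate 2 exceeded WT replicate 2. The log2 fold change was -1.07 ± 1.77 (SE, adjusted p = 0.922, edgeR).

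Os04g0644400 (LOC_Os04g55159), the proline-rich-like gene, was at 292, 591 and 0 TPM in OsWRKY65-2 and at 633, 677 and 806 TPM in WT. All OsWRKY65-2 libraries lay below all WT libraries in TPM, whereas in CPM replicate 2 of the line, at 528, lay within the WT range of 479 to 703. It varied least among WT libraries, where its highest TPM was 1.27 times its lowest, against 1.77 to 2.097 times for the DUF1210 genes. Its log2 fold change was -1.07 ± 1.83 (SE, adjusted p = 0.924, edgeR).

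**Figure D1:**
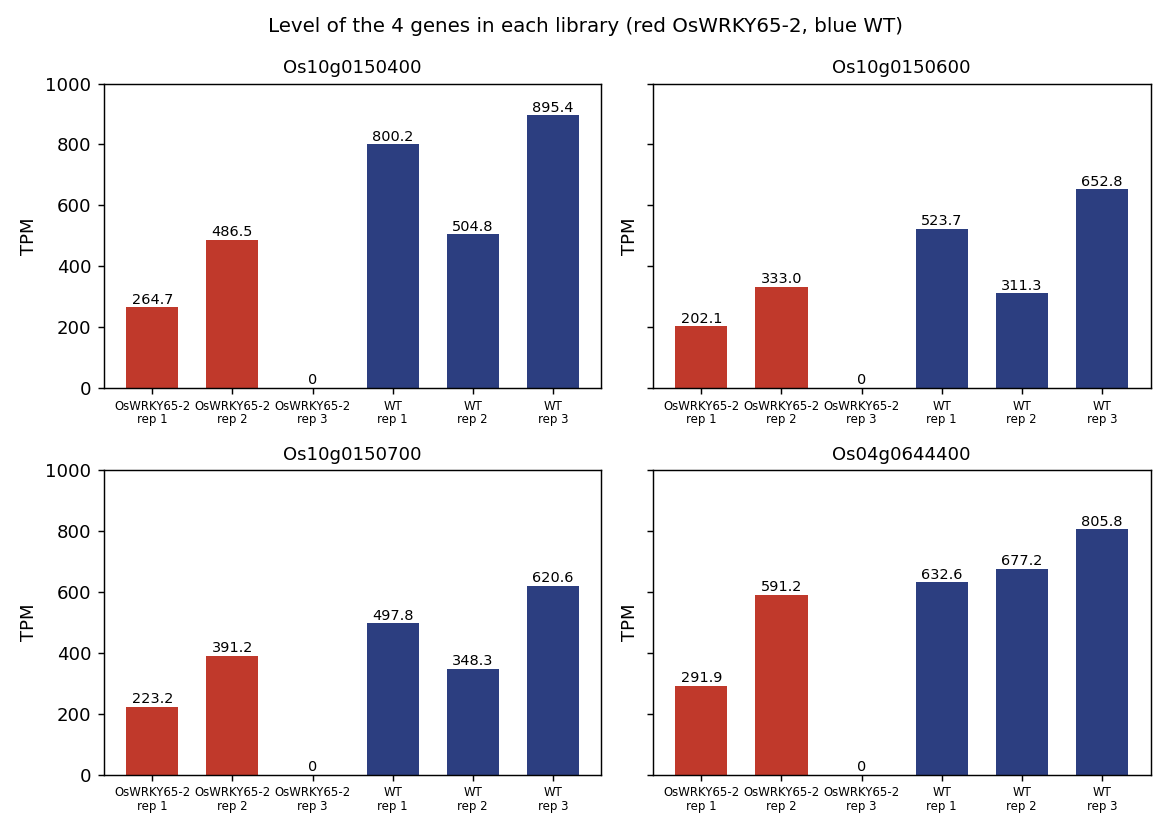
Level in TPM of the 4 genes in each library, with OsWRKY65-2 libraries in red on the left and WT libraries in blue; each bar is 1 library. OsWRKY65-2 replicate 3 is at 0 in all panels, and the WT libraries range from 311 to 895 TPM over the 4 genes.

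For 2 of the 4 genes, then, the genotypes did not overlap in TPM with the line below WT, a pattern found in 18.4% of the 23769 tested genes. In CPM the count was 0 of 4, against 10.5% of tested genes. All 4 fold changes were negative, as were 50.5% of those of all tested genes. edgeR called 0 of the 4 genes lower, and 0 of all tested genes (0% lower and 0% higher). At an unadjusted p under 0.05 the count was also 0 of 4, against 6.51% of all tested genes, and DESeq2, which called 0.684% of genes higher and 0.401% lower, and limma-voom, which called 0%, called 0 of the 4 as well. The SE of each fold change exceeded the fold change itself, with OsWRKY65-2 replicate 3 at 0 and replicates 1 and 2 at 202 TPM or more. In these bulk samples, fewer cells of a type and less RNA per cell cannot be told apart.

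Without OsWRKY65-2 replicate 3 the fold changes were smaller and their errors much smaller. The log2 fold change of Os10g0150400 was -0.78 ± 0.35 (SE, unadjusted p = 0.0586, adjusted p = 0.491, edgeR). That of Os10g0150600 was -0.71 ± 0.37 (adjusted p = 0.543, edgeR). The remaining pair, Os10g0150700 and Os04g0644400, had the same value to 2 decimals, -0.49, with an SE of 0.34 and 0.32 and an adjusted p of 0.658 and 0.632 (edgeR). In that fit edgeR called 0.0243% of 24677 genes lower and 0.0527% higher, none of them among the 4. All 4 fold changes were again negative, as were 48.4% of all. Under DESeq2 and limma-voom without this library, Os10g0150400 had the smallest p of the 4 genes, at 0.0251 and 0.0335 unadjusted, and neither adjusted p (0.2925 and 0.417) passed. DESeq2 called 1.06% of genes higher and 1.68% lower on these 5 libraries, and limma-voom 0.0203% and 0.0081%, with 0 of the 4 genes among them. Mean levels of replicates 1 and 2 of the line were 51.2% to 62.8% of the WT mean in TPM and 58.3% to 71.4% in CPM.

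The replicates of the line that held counts differed from each other. OsWRKY65-2 replicate 1 stood at 36.1% to 45.6% of the WT mean TPM over the 4 genes, and replicate 2 at 66.3% to 83.8%. Leaving out OsWRKY65-2 replicate 2 took the log2 fold changes to between -2.27 and -1.93, and no other omission gave values as low.

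**Figure D2:**
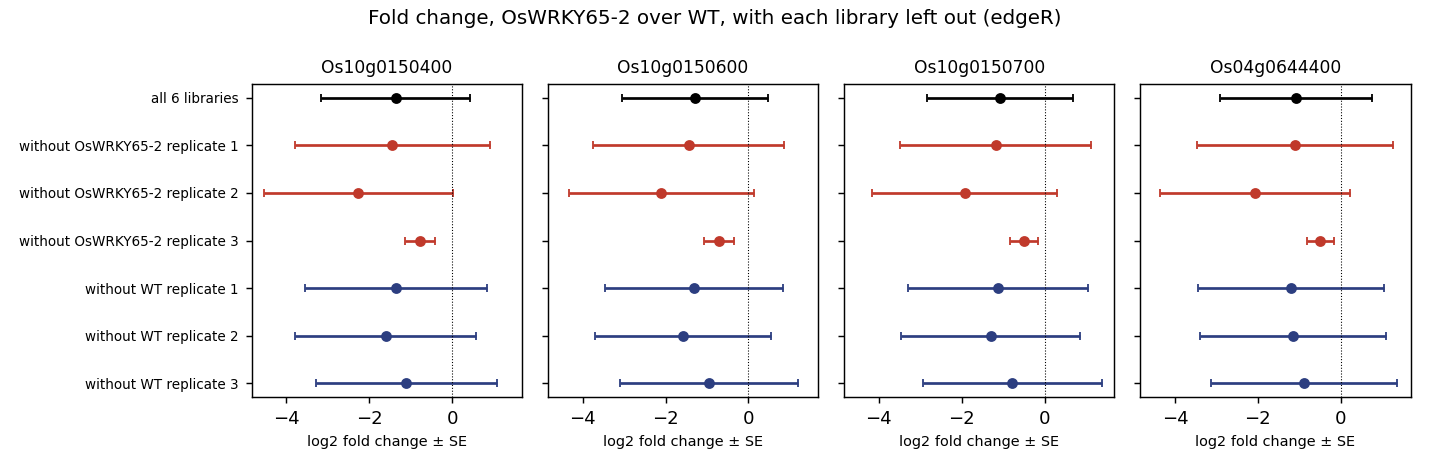
Log2 fold change of OsWRKY65-2 over WT with its SE (edgeR) for the 4 genes, for all 6 libraries and with each library left out in turn (red, a library of the line left out; blue, a WT library left out). Points are negative throughout, and the SE is 0.32 to 0.37 without OsWRKY65-2 replicate 3 but 1.76 to 1.83 with all libraries.

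The levels of the 4 genes followed a partly fixed order within libraries. Os10g0150400 lay above Os10g0150600 and above Os10g0150700 in 5 of the 5 libraries with counts. Os10g0150600 and Os10g0150700 changed places, with Os10g0150600 the higher in WT replicates 1 and 3 and the lower in the other 3 libraries. Os04g0644400 exceeded both in 5 of 5 libraries, and exceeded Os10g0150400 in OsWRKY65-2 replicates 1 and 2 and in WT replicate 2. The ratio of Os04g0644400 to Os10g0150400 ranged from 0.791 to 1.34 in TPM. By mean WT level the order was Os10g0150400 at 733.5 ± 204, Os04g0644400 at 705 ± 89.9, Os10g0150600 at 496 ± 172 and Os10g0150700 at 489 ± 136 TPM (SD, n = 3 each). The WT ranges of each neighbouring pair in this order overlapped. Together the 4 genes made up 982, 1802 and 0 of 1000000 transcripts in OsWRKY65-2 replicates 1 to 3, and 2454, 1842 and 2974 in WT replicates 1 to 3.

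The annotation names 11 DUF1210 genes, 9 of them on chromosome 10, of which 3 are described above. One more abundant gene, Os10g0150800, follows them directly in the identifiers, at 279, 428 and 0 TPM in OsWRKY65-2 and 482, 394 and 593 TPM in WT. Replicate 2 of the line lay above WT replicate 2, and the log2 fold change, -0.86 ± 1.76 (SE; edgeR, adjusted p = 0.938), was the nearest to 0 among the 8 tested DUF1210 genes. Os10g0150300, on the other side of the run, was lower, at 39.1, 98.5 and 0 TPM in OsWRKY65-2 and 129, 82.4 and 116.5 TPM in WT. The remaining tested chromosome 10 genes, Os10g0149000 and Os10g0149200, did not exceed 5.47 TPM in OsWRKY65-2 or 9.01 TPM in WT. Os10g0148700 and Os10g0149800 had no count in any library, with 3 counts as the limit that each library allows. Away from the cluster, Os03g0245200 on chromosome 3 was at 21.9, 32.6 and 0 TPM in OsWRKY65-2 and at 72.9, 27.3 and 54.9 TPM in WT, and Os07g0484900 on chromosome 7 had 4 counts in OsWRKY65-2 replicate 1 and none elsewhere.

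Expression along the chromosome 10 run ended sharply. Beyond Os10g0150800 the next 4 genes by identifier (Os10g0151100, Os10g0151233, Os10g0151366 and Os10g0151500) had no count in any library. On the other side, the hypothetical gene Os10g0150000 held at most 7 counts in OsWRKY65-2 and 9 in WT, and Os10g0149700 held none. Os10g0150200, a sterile alpha motif protein between these and the DUF1210 genes, was the sole gene of this stretch with a count in OsWRKY65-2 replicate 3. It was at 0, 5.68 and 1.19 TPM in OsWRKY65-2 and at 7.77, 2.76 and 2.85 TPM in WT, so the genotypes overlapped. The genes annotated as similar to proline-rich protein in the same run, Os10g0149100 and Os10g0149400, picked here after their values were seen, reached 4.25 and 3.12 TPM in OsWRKY65-2 and 5.31 and 2.76 TPM in WT, and both were at 0 in OsWRKY65-2 replicate 3.

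**Figure D3:**
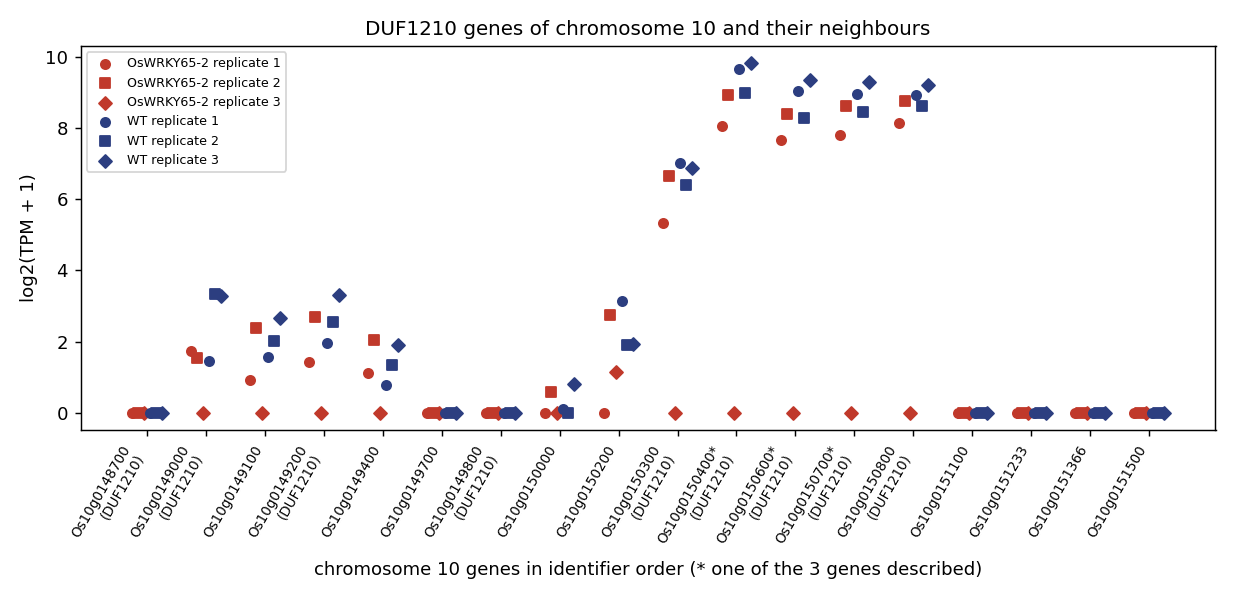
Levels of the DUF1210 genes of chromosome 10 and of nearby genes in identifier order, as log2(TPM + 1), with 1 point per library (red, OsWRKY65-2; blue, WT). Os10g0150300 to Os10g0150800 lie far above their neighbours in 5 libraries and at 0 in OsWRKY65-2 replicate 3.

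Within the chromosome 10 cluster the share of each gene in the summed TPM was taken over the 5 genes with a mean WT level above 10 TPM, in the 5 libraries with counts. Os10g0150400 made up 26.2% and 28.0% in OsWRKY65-2 replicates 1 and 2, against 32.9%, 30.8% and 31.1% in WT. Os10g0150800 made up 27.7% and 24.6% in the line, against 19.8%, 24.0% and 20.6% in WT, and it was the more abundant of this pair in OsWRKY65-2 replicate 1 alone. For Os10g0150700 the shares were 22.1% and 22.5% in the line, against 20.5%, 21.2% and 21.6% in WT. In these shares OsWRKY65-2 replicates 1 and 2 did not overlap with WT. The nearest values were 24.6% in the line against 24.0% in WT for Os10g0150800. For Os10g0150700 they were 22.1% against 21.6%. With so few libraries such a separation can arise from their order alone, and its frequency among other genes was not counted. The shares of a library add up to a whole, so a lower share of one gene raises those of others. The difference was not tested. Shares of Os10g0150600 (20.04% and 19.2% in the line, 19.0% to 22.7% in WT) and of Os10g0150300 (3.88% and 5.67% in the line, 4.05% to 5.31% in WT) overlapped. The summed TPM of all chromosome 10 DUF1210 genes was 1012, 1745 and 0 in OsWRKY65-2 and 2437, 1654 and 2895 in WT. Copies that resemble each other can share reads, and their counts were not checked for this, so the split among these neighbours is uncertain.

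Few genes as abundant as the 4 were at 0 in OsWRKY65-2 replicate 3. A count of 0 was found in that library for 17.9% of all tested genes. Over all listed genes, 20893 had a count there, against 24091 to 27129 in the other libraries. Among the 365 genes that reached at least 202 TPM, the lowest value of the 4 genes, in each of the other 5 libraries, 7 were at 0 in OsWRKY65-2 replicate 3. Those 7 are the 4 genes described, Os10g0150800, the lipid transfer protein gene Os12g0114800 and Os02g0662100, annotated as similar to Tfm5 protein. The same count made for each other library in turn gave 0 genes out of 235 to 244. Those sets also required 202 TPM or more in OsWRKY65-2 replicate 3, which left out the 4 genes and others low there. The sets are therefore not alike, and the counts cannot be compared directly. The threshold was set from the 4 genes themselves, so their own place among the 7 is given as a description. With 3 counts as its limit, a count of 0 in OsWRKY65-2 replicate 3 allows up to 0.160 CPM, against 191 CPM or more in every WT library. This limit covers counting error only. Just 63 genes were at a count of 1 in that library, and 93 to 247 in the others. A listed 0 may therefore hide more than this limit, in any library.

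**Figure D4:**
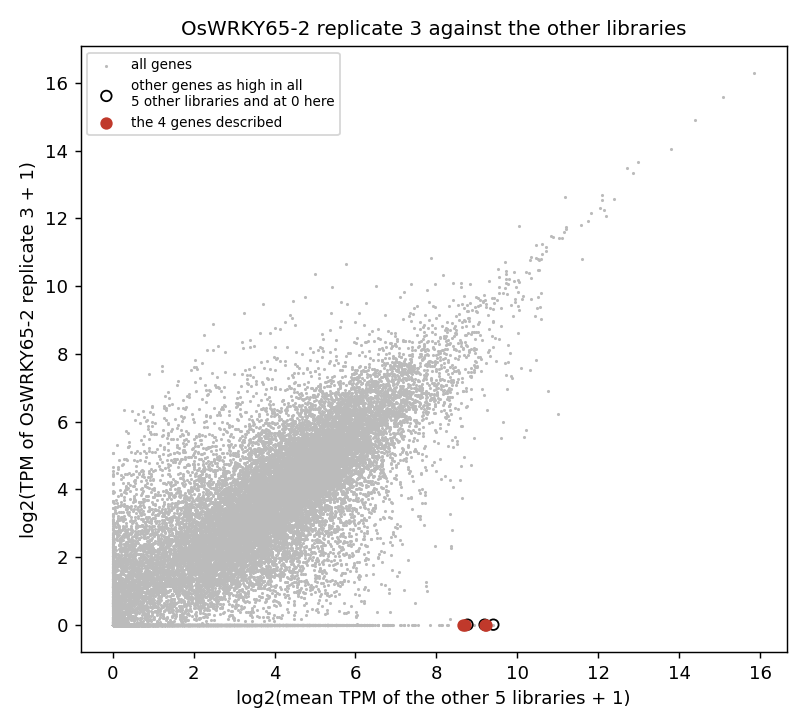
Each gene's level in OsWRKY65-2 replicate 3 against its mean over the other 5 libraries, both as log2(TPM + 1) (grey, all genes; red, the 4 genes described; open circles, the other 3 genes at 202 TPM or more in all 5 other libraries and at 0 here). The 7 marked genes lie on the zero line, to the right of nearly all other genes with no count.

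Markers of growing tissue did not all move one way in that library. Genes of dividing cells (histones, cyclins of the A and B types and kinesins) summed to 5288, 8399 and 1914 TPM in OsWRKY65-2 replicates 1 to 3 and to 4703 to 6171 TPM in WT. In OsWRKY65-2 replicate 3, 25 of 92 tested members (27.2%) were at 0, against 17.9% of all tested genes. The most abundant member, the histone H3 gene Os06g0130900, was named after its values were seen and was highest there, at 631.5 TPM. The next 5 by mean TPM, all histones, went the other way, at 1.40 to 85.8 TPM there. Each of those 5 was at 159 TPM or more in every other library. Of the 92 members 59 had a positive fold change, and without that library 71 of 94 did (median 0.58, against 0.02 over all genes), with 0 called in either fit (edgeR). At an unadjusted p under 0.05 (edgeR) there were 3 of 92, against 1547 of 23769 over all tested genes. Without that library there were 41 of 94, against 2613 of 24677. The genes listed as shoot meristem markers summed to 103, 58.2 and 128 TPM in OsWRKY65-2 and to 67.0, 79.5 and 69.9 TPM in WT. Their sum in OsWRKY65-2 replicate 3, the highest, came from the most abundant of the 6 tested genes, Os08g0292900. This gene is annotated as knotted-1-like 13 with no meristem role named, and was at 47.65 TPM or more in every library. The sum is therefore no measure of meristem. The other 5 tested genes were at 0 in that library, but they were low in all, at no more than 7.04 TPM in OsWRKY65-2 and 10.1 TPM in WT. Of these, Os05g0129700, Os07g0129700, Os03g0727000 and Os01g0302500 were also at 0 in WT replicate 3, and Os03g0673000 was at 0 in all 3 libraries of the line. The transgene target Os12g0116800 was highest in the same library. The part of these markers, of the target's level and of the library itself in the zeros of the 4 genes was not tested.

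The genes whose profile over the 6 libraries was most like that of a member were mostly other DUF1210 genes. Likeness was measured as the mean absolute difference of log2(CPM + 1), each gene centred on its own mean, over 6 libraries and 16638 genes at 5 CPM or more. Nearest to Os10g0150400 was Os02g0662100, at a mean difference of 0.13, at levels of 249, 569.5 and 0 TPM in OsWRKY65-2 and 984.5, 628 and 961 TPM in WT. Next to it came Os10g0150600 at 0.16 and Os10g0150700 at 0.18. Os10g0150600 had Os10g0150700 at 0.12, Os10g0150400 at 0.16 and Os12g0114800 at 0.19 as its nearest genes. The lipid transfer protein gene Os12g0114800 was at 209, 453 and 0 TPM in OsWRKY65-2 and at 903, 496 and 858 TPM in WT. Os10g0150700 was nearest to Os10g0150800, at 0.11, followed by Os10g0150600 at 0.12 and Os10g0150400 at 0.18. The nearest to Os04g0644400 were Os10g0150700, Os10g0150400 and Os10g0150800, at 0.26, 0.29 and 0.32.

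These rankings changed without OsWRKY65-2 replicate 3, most of all for Os04g0644400. Mean differences among the 3 chromosome 10 genes described were 0.094 to 0.145 over the other 5 libraries, against 0.12 to 0.18 over 6. The ranks that follow are among the same 16638 genes. Over the other 5 libraries, Os10g0150600 and Os10g0150700 were 10th and 50th in nearness to Os10g0150400, and Os02g0662100 was 34th. In nearness to Os10g0150600, Os10g0150400 was 4th, Os10g0150700 12th and Os12g0114800 133rd. Os10g0150600, Os10g0150800 and Os10g0150400 were 31st, 47th and 78th for Os10g0150700. For Os04g0644400, Os10g0150800 was 301st, Os10g0150700 600th and Os10g0150400 1542nd.

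Other wall-related genes were counted from text patterns on the annotation. edgeR called 0 genes in every one of these lists, with all 6 libraries and without OsWRKY65-2 replicate 3. For comparison, 50.5% of all tested genes had a negative fold change, and 17.9% were at 0 in OsWRKY65-2 replicate 3. In CPM, every OsWRKY65-2 library lay below every WT library for 10.5% of them. All 8 tested DUF1210 genes, 3 of them described above, had a negative fold change, and their median was -1.18 on the log2 scale, against -0.01 over all tested genes. Without OsWRKY65-2 replicate 3 all 8 were also negative (median -0.60, against 0.02 over all genes). With the replicate block on those 5 libraries, 7 of 8 were negative. All 8 were at 0 in OsWRKY65-2 replicate 3, none passed at an unadjusted p under 0.05, and in CPM the genotypes overlapped for all 8.

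Of 27 tested proline-rich and extensin genes, Os04g0644400 among them, 10 had positive and 17 negative fold changes (median -0.43), and 14 were at 0 in OsWRKY65-2 replicate 3. Without that library 12 of 28 were positive (median -0.30). Os10g0371000, an extensin-like protein of stem lodging resistance, was at 102, 173 and 6.77 TPM in OsWRKY65-2 and 314, 208 and 226 TPM in WT. Its OsWRKY65-2 levels all lay below WT, in TPM and in CPM, and its log2 fold change was -1.20 ± 0.94 (SE, adjusted p = 0.829, edgeR). Os05g0227600, a proline-rich glycoprotein linked to root growth inhibition by abscisic acid, was at 111, 184 and 14.0 TPM in OsWRKY65-2 and 182, 359 and 218 TPM in WT, and the genotypes overlapped. Levels of 2 of the 5 most abundant members lay the other way. The hybrid proline-rich protein gene Os04g0612500, annotated for tolerance to multiple stresses, was at 324, 298.5 and 433 TPM in OsWRKY65-2 and at 76.6, 49.9 and 114 TPM in WT. It did not overlap between genotypes, and its log2 fold change was 2.30 ± 0.41 (SE; edgeR, adjusted p = 0.763), or 2.11 without OsWRKY65-2 replicate 3 (adjusted p = 0.139, edgeR). Os02g0556800, of the proline-rich family, was at 115, 68.9 and 136 TPM in OsWRKY65-2 and at 71.0, 52.0 and 82.5 TPM in WT, with OsWRKY65-2 replicate 2 inside the WT range.

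Among prolyl 4-hydroxylases, which modify the prolines of such proteins, 4 of 7 tested genes had positive and 3 negative fold changes, and 1 was at 0 in OsWRKY65-2 replicate 3. Their median was 0.04, and its sign differed between settings, from -0.22 to 0.27. The most abundant, Os10g0413500, was at 66.3, 59.9 and 77.5 TPM in OsWRKY65-2 and at 86.1, 79.9 and 70.7 TPM in WT. Its log2 fold change was 0.04 ± 0.21 (SE, adjusted p = 0.977, edgeR).

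Glycine-rich wall-type proteins had 9 positive and 8 negative fold changes among 17 tested (median 0.18), and the sign of this median differed between settings, from -0.44 to 0.29. The most abundant of them, Os03g0670700, was at 2384, 3075 and 1777 TPM in OsWRKY65-2 and at 3614, 3559 and 2972 TPM in WT, and OsWRKY65-2 replicate 2 lay inside the WT range. Of 8 tested pollen Ole e 1 family genes, 4 were positive and 4 negative, with 4 to 6 negative over all settings.

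Arabinogalactan and fasciclin-like proteins, which are heavily glycosylated proteins of the wall and plasma membrane surface, had 8 of 9 tested members negative (median -1.01). Without OsWRKY65-2 replicate 3, 10 were tested and 7 of them were negative (median -0.51). The most abundant, Os01g0668100, was at 56.9, 131 and 0 TPM in OsWRKY65-2 and 135, 141.5 and 227 TPM in WT. The fasciclin-like gene Os03g0128000 was at 38.8, 83.6 and 0.903 TPM in OsWRKY65-2 and 166, 147 and 129.5 TPM in WT, with every OsWRKY65-2 library below WT in TPM and in CPM. Its adjusted p was 0.819 (edgeR).

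Expansins, which loosen the wall during growth, had 21 of 22 tested members negative (median -0.96), and 14 of them were at 0 in OsWRKY65-2 replicate 3. Without that library 18 of 22 were negative (median -0.60). In CPM every OsWRKY65-2 library lay below every WT library for 11 of the 22, against 10.5% of all tested genes. One of these, Os03g0132200, was at 84.2, 124 and 116 TPM in OsWRKY65-2 and at 232, 178 and 207.5 TPM in WT. Its log2 fold change was -0.69 ± 0.23 (SE, adjusted p = 0.763, edgeR). Os10g0555900, a beta-expansin, was at 142, 179 and 15.05 TPM in OsWRKY65-2 and at 228, 198 and 240.2 TPM in WT. All of its OsWRKY65-2 levels lay below WT in TPM, but in CPM OsWRKY65-2 replicate 2 lay above WT replicate 2, and the log2 fold change, -0.78 ± 0.77 (SE), had an adjusted p of 0.868 (edgeR). Cellulose synthases and related enzymes had 14 of 19 tested members negative (median -0.40, and -0.14 without OsWRKY65-2 replicate 3), and 5 were at 0 in OsWRKY65-2 replicate 3. Os05g0176100, the most abundant of them, was at 202, 295.5 and 37.6 TPM in OsWRKY65-2 and at 379, 361 and 326.5 TPM in WT.

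**Figure D5:**
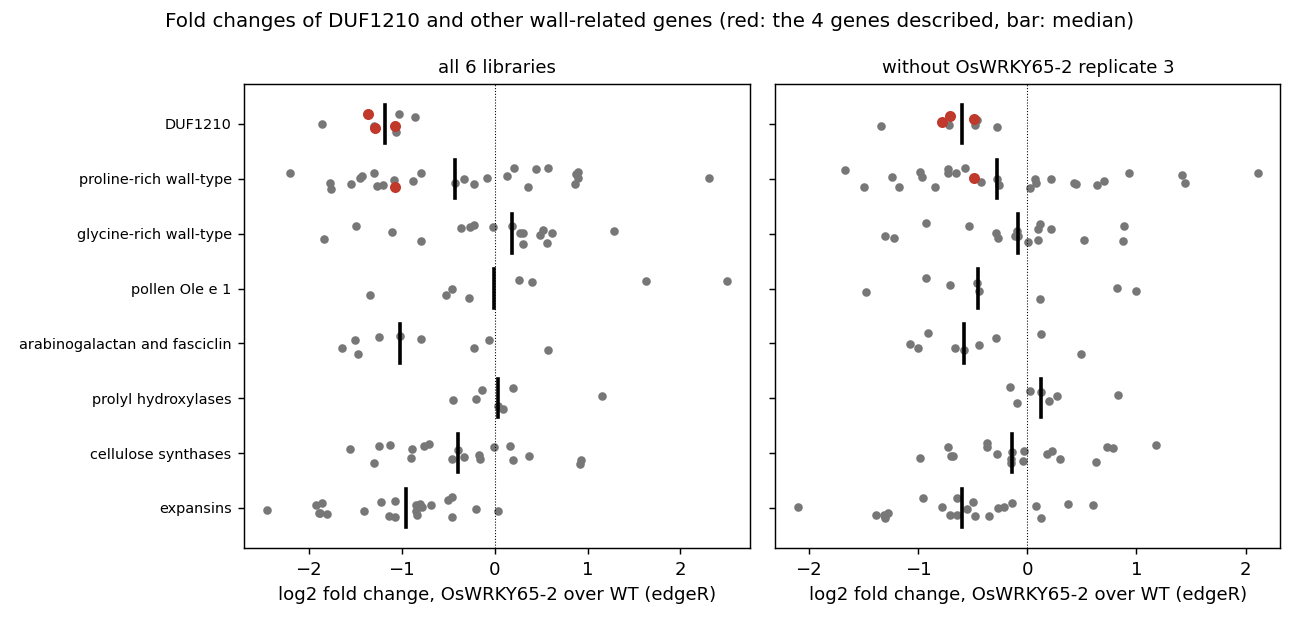
Log2 fold change of OsWRKY65-2 over WT (edgeR) for each tested gene of 8 lists, with all 6 libraries (left) and without OsWRKY65-2 replicate 3 (right); red points are the 4 genes described and bars are medians. All DUF1210 genes lie below 0 in both panels, with medians of -1.18 and -0.60, and no gene shown passed the test.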

How the data were processed

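The 4 genes and all lists were chosen with earlier results of these data known. Genes named besides the 4 were every other DUF1210 gene, the 5 neighbours on each side, the 5 most abundant members of each list, and the 3 annotated genes nearest in profile to each of the 4. Os10g0149100, Os10g0149400 and the single marker genes fall outside this rule and were picked after their values were seen. List patterns were corrected from the annotation text alone.

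Per the file headers, the authors deposited 3 values per gene and library (read count, FPKM, TPM). The deposited counts are estimated counts, already whole. The deposited TPM served for levels, and the deposited FPKM was not used. The submitters' processing notes name the build IRGSP-1.0 and the tools StringTie 2.1.3b, HISAT2 2.1.0, Trimmomatic and bcl2fastq 2.20.0. How reads were counted, strand and annotation are not given in the sources, so reads of overlapping or antisense genes cannot be told apart. The WT columns bear a prefix absent from the labels and were assigned by elimination, on which every direction rests. Chromosomes are those in the identifiers.

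The test was edgeR 4.0.16 (R 4.3.3), robust quasi-likelihood, TMM factors, a filterByExpr minimum count of 10, prior count 2 and only genotype in the model. Calls needed a Benjamini-Hochberg adjusted p under 0.05 over 23769 genes. The SE is the absolute fold change over the square root of F. Alternatives used limma 3.58.1, DESeq2 1.42.0, other factors and filters, a replicate block and the omission of each library. On counts simulated at the dispersion of these 6 libraries the fit returned the simulated fold changes but called none of the changed genes, so the absence of calls over 6 libraries does not show that expression was alike.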

Additional observations from a re-analysis of the deposited data

How the results depend on the processing

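All 4 fold changes were negative in the 17 other settings tried and in the 4 chosen after seeing the data, which joined another setting with the omission of OsWRKY65-2 replicate 3. None was called in any of them (adjusted p from 0.2925 to 0.999). Their size depended on how the zeros of that library were treated. Over all 6 libraries the log2 fold change of Os10g0150400 ranged from -4.93 (limma-trend on log2(TPM + 0.1)) to -1.36, and that of Os04g0644400 from -4.78 (limma-voom) to -1.07. With 1 library left out, the range was -2.27 to -0.78 for Os10g0150400, -2.10 to -0.71 for Os10g0150600, -1.93 to -0.49 for Os10g0150700 and -2.07 to -0.49 for Os04g0644400, in each case from the omission of OsWRKY65-2 replicate 2 to that of replicate 3. Library sizes alone in place of TMM factors moved the median of all genes by -0.18, and the values of the 4 genes by less. With limma-trend that median stood at -0.28 (log2(TPM + 1)) and -0.34 (log2(TPM + 0.1)), far nearer to 0 than the 4 genes.

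Deviations of same-numbered libraries from their group means correlated at 0.0816, -0.0739 and -0.0114, against -0.143 to 0.133 for pairs of unlike number. The mean of the line includes OsWRKY65-2 replicate 3, which stood apart, so these values cannot show whether libraries were paired. With the replicate block the 4 log2 fold changes lay between -2.20 and -1.85 (adjusted p of 0.880 or more, edgeR), and the numbers of genes called over the whole table were again 0 and 0. The values nearest to 0 came from the block without OsWRKY65-2 replicate 3, at -0.54 for Os10g0150400, -0.36 for Os10g0150600, -0.21 for Os10g0150700 and -0.37 for Os04g0644400 (adjusted p from 0.744 to 0.906, edgeR).

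Over all genes, numbers called higher and lower, 0 and 0 in the edgeR test, were 179 and 105 with DESeq2 and 5 and 1 with limma-voom and sample quality weights. Genes called higher were 2 with limma-trend at either pseudocount and 2 with no filter, and none were lower. With 1 library left out, 0 to 13 genes were called higher and 0 to 6 lower, and the only omission with any call was that of OsWRKY65-2 replicate 3. In its absence the numbers were 274 and 435 with DESeq2, 5 and 2 with limma-voom, 14 and 7 with library sizes alone and 7 and 1 with the replicate block. For these differences the cause was not tested.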
